A study of Mus musculus with 6 samples.

Results

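Chemokine ligands are small proteins that guide the movement of leukocytes. They were taken here as every gene of the deposited table whose symbol begins with Ccl or Cxcl followed by a digit, together with Cx3cl1 and Xcl1. The rule found 36 of the 21900 genes in the table, of which 21 were named Ccl, 13 were named Cxcl and the other two were Cx3cl1 and Xcl1. The platelet chemokines Ppbp and Pf4 carry other symbols and fall outside the rule. RNA-seq had been run on 6 mouse lung libraries after 10 weeks on a high fat diet, with no group on another diet. Of these, 3 were labelled wild type and 3 were labelled Cyp1b1 KO (knockout), and each label held 2 females and 1 male. The design addressed what loss of the cytochrome P450 enzyme CYP1B1 does in the lung on that diet. The labels give no strain, age or route of the deletion, and nothing in them shows that the libraries are separate animals. The p-values below therefore measure only how far these libraries spread.

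Chemokine ligands bind G protein-coupled receptors on leukocytes and fall by their cysteine spacing into the CC, CXC, CX3C and XC classes. Some are made at all times by epithelium, endothelium or stroma and place resident cells, and others are switched on by interferon or by NF-kB and draw neutrophils, monocytes or lymphocytes into inflamed tissue. In the lung the epithelium is a well known source of neutrophil-attracting CXC ligands, and lymphatic vessels are a source of CCL21, which leads dendritic cells and T cells out of the tissue. Many of the genes lie in clusters: 11 members were on chromosome 11, 10 on chromosome 5, 5 on chromosome 4 and 4 on chromosome 8.

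The sequences shown first are those just upstream of the members on which the results below turn. Of the 36 members, 26 had an entry in the RefSeq promoter table (GRCm38.p6), and Ccl21b was left out because its nearest entry was over 1000 bases from the gene start. The 250 bases before the start of the remaining 25 were searched on both strands for 3 motifs. The NF-kB motif was GGGA and TTCC with any 2 bases between them, the ISRE motif (interferon-stimulated response element) was TTTC and a second TTTC with any 2 bases between, and the STAT motif was TTC and GAA with any 3 bases between. The STAT motif was added after the data had been seen. Capitals mark the matched letters in each sequence, which is written along the gene's own strand. Cxcl9 (chr5:92328080-92328329, minus strand), Cxcl10 (chr5:92348890-92349139, minus strand), Ccl8 (chr11:82114935-82115184, plus strand) and Cxcl14 (chr13:56296552-56296801, minus strand) are shown because their genotype difference differed between the sexes:
Cxcl9: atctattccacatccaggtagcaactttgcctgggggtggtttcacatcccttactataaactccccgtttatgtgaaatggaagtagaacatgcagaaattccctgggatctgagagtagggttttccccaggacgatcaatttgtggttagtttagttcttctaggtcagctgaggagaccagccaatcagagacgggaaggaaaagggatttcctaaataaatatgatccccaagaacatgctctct
Cxcl10: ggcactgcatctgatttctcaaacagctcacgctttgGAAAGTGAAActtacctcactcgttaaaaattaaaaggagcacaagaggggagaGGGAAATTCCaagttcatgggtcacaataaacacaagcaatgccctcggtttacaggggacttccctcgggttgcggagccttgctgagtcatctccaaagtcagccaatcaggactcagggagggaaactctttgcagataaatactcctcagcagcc
Ccl8: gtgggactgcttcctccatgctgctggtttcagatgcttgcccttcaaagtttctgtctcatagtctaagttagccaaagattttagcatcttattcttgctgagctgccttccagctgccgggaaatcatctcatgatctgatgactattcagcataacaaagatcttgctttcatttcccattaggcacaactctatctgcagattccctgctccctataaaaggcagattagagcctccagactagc
Cxcl14: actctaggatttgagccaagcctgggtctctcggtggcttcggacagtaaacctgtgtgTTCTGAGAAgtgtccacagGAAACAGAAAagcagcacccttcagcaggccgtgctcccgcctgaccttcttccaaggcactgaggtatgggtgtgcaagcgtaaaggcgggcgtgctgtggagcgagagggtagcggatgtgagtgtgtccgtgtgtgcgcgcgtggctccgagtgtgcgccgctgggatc
The Cxcl10 window held the ISRE motif on the opposite strand, 213 bases before the RefSeq start, and the NF-kB motif 159 bases before it. The Cxcl9 and Ccl8 windows held none of the 3 motifs, which says only that these letters are not in those 250 bases. The Cxcl14 window held the STAT motif 191 bases and, on the opposite strand, the ISRE motif 172 bases before the start. No matches of different motifs overlapped in these windows.

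A shorter stretch is shown for Cxcl1 (chr5:90891154-90891204), Cxcl2 (chr5:90903782-90903832) and Cxcl3 (chr5:90786008-90786058), all on the plus strand, because these neighbours share the same 11 matched letters, while Cxcl1 and Cxcl2 were highest in different libraries:
Cxcl1: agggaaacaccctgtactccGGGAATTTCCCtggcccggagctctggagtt
Cxcl2: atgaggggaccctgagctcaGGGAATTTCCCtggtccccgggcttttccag
Cxcl3: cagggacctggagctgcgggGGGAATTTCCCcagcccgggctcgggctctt
The NF-kB match began 71, 97 and 73 bases before the starts of Cxcl1, Cxcl2 and Cxcl3, and it was read on both strands with a shift of 1 base. The NF-kB motif was found in 4 of the 25 members with a window (Cxcl1, Cxcl2, Cxcl3 and Cxcl10) and in 1.21% of the 32851 windows in the table. The ISRE motif was found in 3 of 25 (Ccl19, Cxcl10 and Cxcl14) and in 2.98% of all windows. The Ccl19 match began 208 bases before its RefSeq start. That start lies 212 bases inside the gene as GENCODE M21 annotates it, so the match falls within that annotated gene. The STAT motif was found in 2 of 25 (Ccl17 and Cxcl14) and in 7.02% of all windows. A match describes the letters and shows neither binding nor control.

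Values per library are given below as CPM (counts per 1000000 reads assigned to genes), in the order female 1, female 2 and male 3 of each label. The targeted gene went against its label: Cyp1b1 was at 12.5, 19.04 and 18.5 CPM under the wild type label and at 51.2, 56.1 and 48.4 CPM under the knockout label (exact two-sided permutation p = 0.1, the smallest that 3 against 3 allows). Each direction for genotype therefore rests on the labels as given, and values summed over a gene leave unknown whether its reads cover the deleted sequence. Depth lay between 20.2 and 27.6 times 1000000 assigned reads per library, and 3 reads, the floor used below, were worth 0.109 to 0.148 CPM. The 2 males stood apart from the females and from each other. A list of 12 neutrophil markers, all with reads in every library, summed to 6779 CPM in the male labelled knockout against 205 to 279 CPM in the 4 females. A list of 15 interferon-response genes summed to between 441 and 518 CPM in the females and to 1965 CPM in the wild type male. With 1 male per label, every result that rests on a male rests on 1 library, and values for the 4 females alone are given beside such results. In whole lung, more cells of a type and more RNA per cell cannot be told apart.

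**Figure D1:**
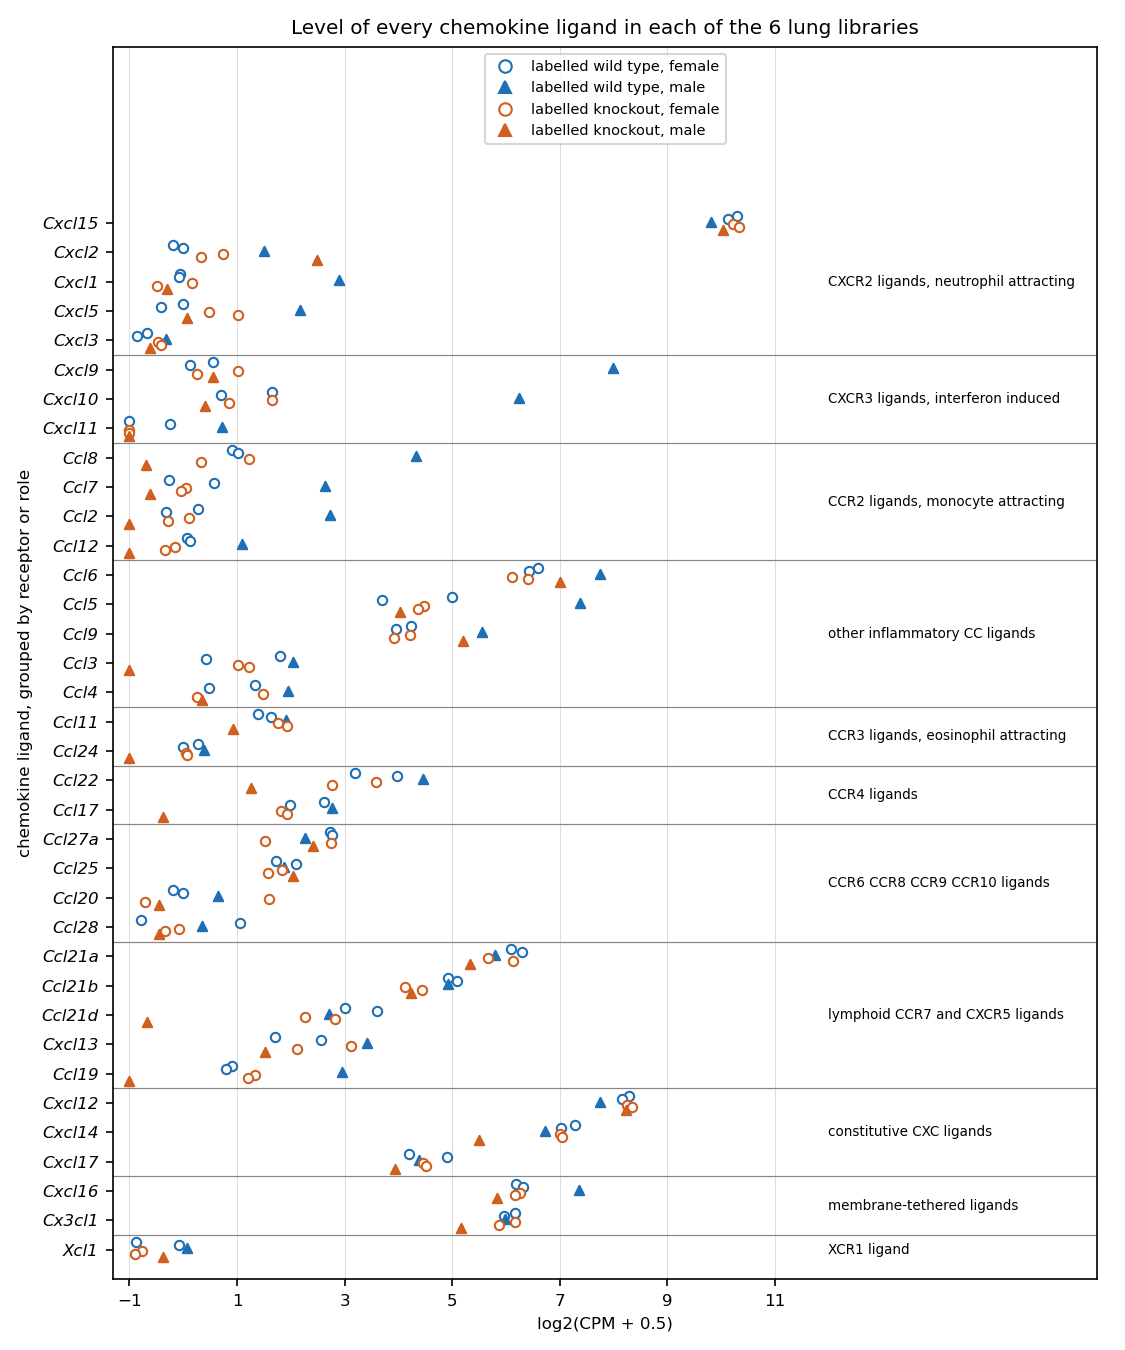
Level of each of the 36 chemokine ligands in the 6 libraries, as log2(CPM + 0.5), grouped by receptor or role, with circles for females and triangles for males, blue for libraries labelled wild type and orange for those labelled knockout. The blue triangle of Cxcl9 stands at 253 CPM while the other 5 libraries lie between 0.593 and 1.52 CPM, and the orange triangle of Cxcl2, at 5.15 CPM, is the highest of its 6.

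The ligands as a group took between 0.176% (the male labelled knockout) and 0.242% (the male labelled wild type) of the assigned reads. Cxcl15 (chromosome 5, 90794534 to 90803067), also called lungkine and known as a product of airway epithelium, gave 54.3% of the summed CPM of the family. Cxcl12, the ligand of CXCR4 that retains leukocytes, gave 13.9%, and no other member gave more than the 5.53% of Cxcl14. On a scale of CPM per 1000 bases of annotated exon, which allows genes to be compared, Cxcl15 stood at 535 ± 70.7 (SD, n = 6). Ccl21a, Cxcl14 and Ccl6 followed at 69.2 ± 16.6, 63.4 ± 20.98 and 63.04 ± 30.1 CPM per 1000 bases (SD, n = 6), which do not differ beyond their spread. Ccl5 was at 46.4 ± 62.1, Cxcl12 at 35.7 ± 4.85, Cxcl16 at 28.8 ± 12.8 and Cxcl17 at 27.7 ± 6.57 CPM per 1000 bases (SD, n = 6). The same scale placed Cxcl9 at 14.2 ± 34.1 (SD, n = 6), where the SD exceeds the mean because 1 library holds nearly all of the reads. Cxcl12 held fewer reads per base than Ccl6 although its CPM was higher, since its exons span 8176 bases against 1795 for Ccl6. At the low end, Cxcl3, Cxcl11 and Xcl1 had means under 0.5 CPM and were not tested, which left 33 members. That mean was taken over all 6 libraries. Ccl2, Ccl7, Ccl12, Ccl24 and Cxcl1 reached it only through their level in the male labelled wild type.

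The genotype comparison found no member past the threshold in any of the settings tried. limma, fitted to log2(CPM + 0.5) of 17382 genes with sex as a second term and Benjamini-Hochberg adjustment over all genes, called 0 of the 33 members, and 0.0115% of all genes (2 genes, both lower under the knockout label). At an unadjusted p under 0.05 there were 8 members, 7 of them lower, against 5.13% of all genes. The median log2 difference of the members, labelled knockout minus labelled wild type, was -0.51, with 3 positive and 30 negative, against -0.06 for all genes tested. In the 4 females alone the median was -0.06, with 12 positive and 21 negative, and the median of all genes was -0.004. With only the females, limma also called 0 members, and 3 had an unadjusted p under 0.05 (Ccl21b, Ccl21d and Cxcl5), where 2.63% of all genes did. The 2 labels did not overlap for 3 members, Ccl12, Ccl17 and Ccl21b, which were lower under the knockout label in all libraries (5.89% of genes tested did this). For Ccl12 the nearest values, 0.544 CPM in labelled wild type 1 and 0.403 CPM in labelled knockout 1, lay only a few reads apart. No tested member was higher in all libraries labelled knockout (3.63% of genes).

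**Figure D2:**
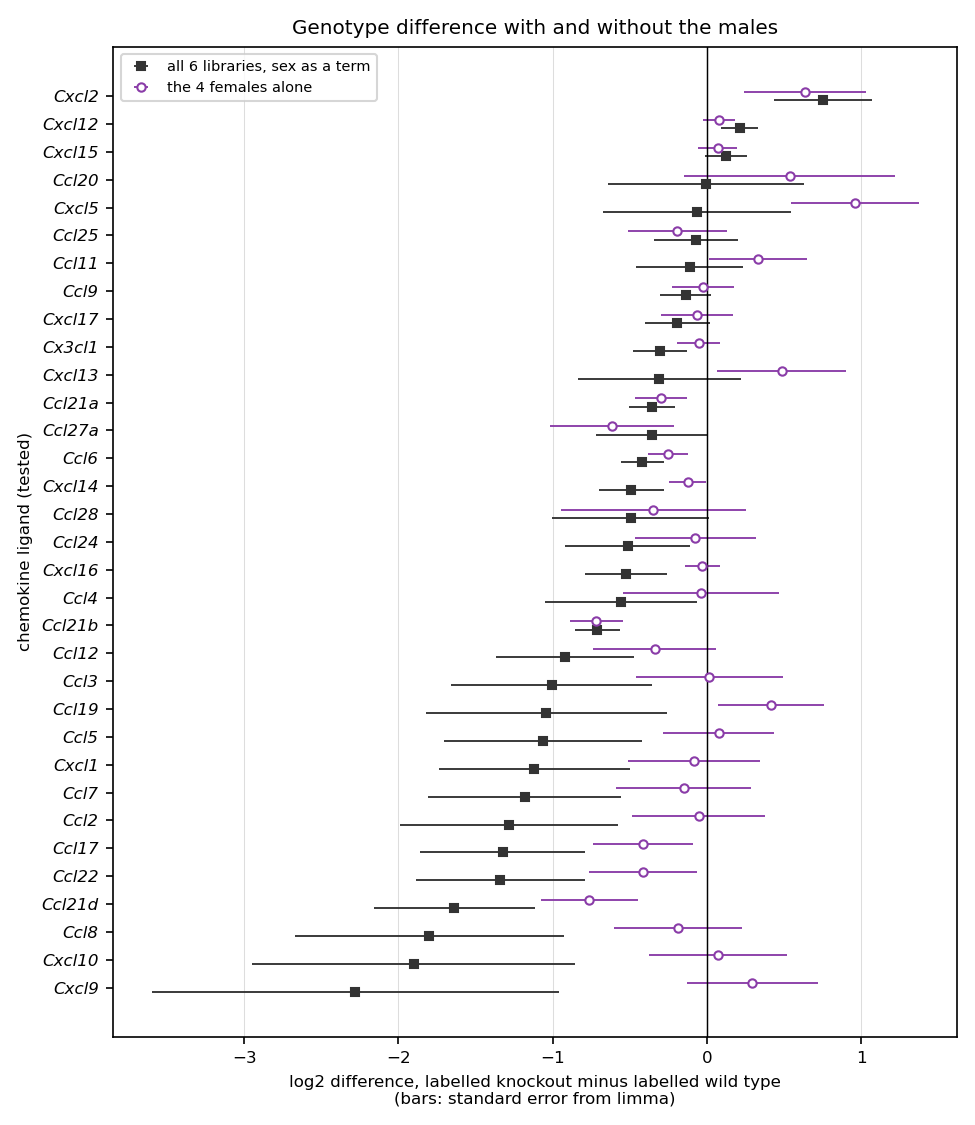
Log2 difference between the labels (labelled knockout minus labelled wild type) for the 33 tested ligands, with the standard error from limma as bars, from all 6 libraries (black squares) and from the 4 females alone (open circles). Cxcl9, Cxcl10 and Ccl8 lie farthest to the left with all libraries, at -2.28, -1.90 and -1.80, and at 0.29, 0.07 and -0.19 in the females, while Ccl21b is at -0.71 and -0.72.

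The sex comparison called 2 members, both higher in males. In limma with genotype as a second term and Benjamini-Hochberg adjustment, Ccl9 and Ccl6 passed among 33 members, where 0.834% of all genes did (145 genes, 109 of them higher in males). Neither held when any 1 of the 4 females was left out (limma adjusted p between 0.0512 and 0.133 for Ccl9 and between 0.0734 and 0.1201 for Ccl6), or without limma's variance trend. Over all alternatives the limma adjusted p ran from 0.0125 to 0.133 for Ccl9 and from 0.00503 to 0.168 for Ccl6. With either male left out the count rose instead, to 9 members without the male labelled wild type (3 of them higher in the male) and to 12 without the male labelled knockout (all higher in the male). The share of all genes called rose as well, to 5.05% and 4.1%, and in both fits 1 male stands against the females, whose spread it is assumed to share. The closest members beyond the threshold were Cxcl2, 1.79 higher in males on the log2 scale (limma adjusted p = 0.0577), and Cxcl14, 0.98 lower (limma adjusted p = 0.0995). The 2 males lay above all 4 females for Ccl6, Ccl9 and Cxcl2 (9.28% of genes tested) and below them for Cxcl14 and Cxcl15 (14.7% of genes).

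The difference between the labels was not alike in the 2 sexes for 8 members. In limma with genotype, sex and their interaction, Cxcl9, Cxcl10, Cxcl16, Ccl19, Ccl8, Ccl5, Cxcl14 and Ccl2 passed, where 2.54% of all genes did (441 genes, 319 negative and 122 positive). All 8 were negative (1.84% of genes, and 0.702% of genes were called positive), which means that the labelled knockout minus labelled wild type difference was lower between the males than between the females. A further 11 members had an unadjusted p under 0.05, all negative, which makes 19 of 33 at that level, where 17.9% of all genes were. Ccl2 among the 8, and Ccl7, Ccl12 and Cxcl1 among the 11, reached the filter only through the male labelled wild type. For them the library that sets the interaction also let them be tested. The median interaction of the 33 members was -1.56 and that of all genes tested was -0.13. With the 5 members that had a library without a read set to the 3-read floor there, the members' median was -1.49. All 8 calls ended when no low genes were filtered out or when the variance trend was dropped, settings in which limma called 0 of all genes (20 and 19 members then had an unadjusted p under 0.05). With 1 male per label, the spread of this test comes from the females, and the males are assumed to vary like them.

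The interaction split into what each male did against the females of its own label. The male labelled wild type was more than 1 log2 unit above its females for 15 of the 33 members, where 6.22% of all genes were, and below them by that much for none (1.18% of genes). Its median over the members was 0.94, and that of all genes was 0.009. The male labelled knockout was more than 1 log2 unit below its females for 9 members (5.66% of genes) and above them for Ccl9 and Cxcl2 (3.51% of genes), with a median of -0.61 over the members and -0.13 over all genes. With the members without a read set to the floor, these became 8 members and a median of -0.57. The male labelled wild type was the highest of the 6 libraries for 19 of 33 members (25.7% of genes), and the male labelled knockout was the lowest for 18 (37.5% of genes). Both held at once for 12 members (11.4% of genes). Neither held for Cxcl2, where the male labelled knockout was highest (17.6% of genes), for Cxcl12 and Cxcl15, where the male labelled wild type was lowest (18% of genes), or for Ccl20, Ccl21b, Ccl25, Ccl27a and Ccl28. Of the 19, Ccl2, Ccl7, Ccl12, Ccl24 and Cxcl1 were tested only because the male labelled wild type was high in them. Some of these are in the counts of 15 and 12 too. For these members the filter in part fixed the outcome.

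**Figure D3:**
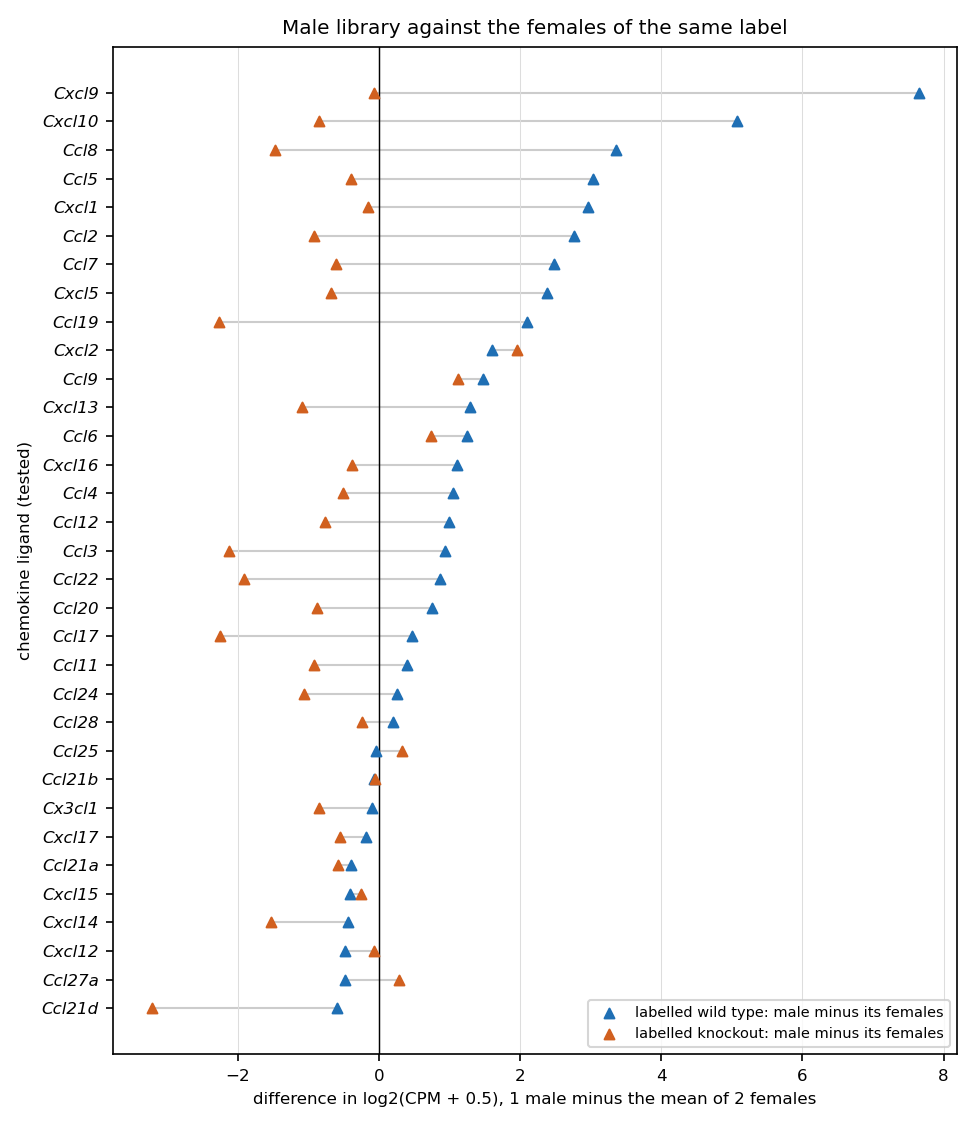
Difference in log2(CPM + 0.5) between the male of each label and the mean of its 2 females, for the 33 tested ligands, with blue triangles for the wild type label, orange triangles for the knockout label and a grey line joining the pair. The blue triangle reaches 7.65 for Cxcl9 and the orange one -0.07, whereas the pairs of Cxcl2, Ccl9 and Ccl6 lie on the same side of 0.

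The CXCR3 ligands Cxcl9, Cxcl10 and Cxcl11 are induced by interferon-gamma and draw activated T cells and NK cells. Cxcl9 (chromosome 5, 92321347 to 92328079) lies on the minus strand. It stood at 0.963, 0.593 and 253 CPM under the wild type label and at 1.52, 0.689 and 0.975 CPM under the knockout label. That library, the male under the wild type label, was 325-fold above the mean of its females and 260-fold above the other male, and the remaining 5 libraries overlapped. Its interaction was -7.72 (SE 0.64, limma adjusted p = 0.00094). Cxcl10 (chromosome 5, 92346638 to 92348889) lies on the minus strand. It stood at 2.64, 1.14 and 75.5 CPM under the wild type label and at 2.64, 1.31 and 0.819 CPM under the knockout label. The same male was 40.0-fold above its females, and the interaction was -5.92 (SE 0.73, limma adjusted p = 0.00599). Exons of Art3 overlap those of Cxcl10 on the opposite strand, and strand use is not given, so reads of the pair cannot be told apart. Cxcl11 had no read in labelled wild type 1 or in any library labelled knockout, and gave 0.346 and 1.15 CPM in female 2 and male 3 of the wild type label. In the females alone the genotype differences of Cxcl9 and Cxcl10 were 0.29 and 0.07, neither past the threshold in limma.

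The CCR2 ligands Ccl2, Ccl7, Ccl8 and Ccl12, known for drawing monocytes, lie in a cluster on chromosome 11, and each was highest in the male labelled wild type. Ccl2, Ccl7 and Ccl12 passed the filter only through that library. Ccl8 (chromosome 11, 82115185 to 82116799) was at 1.38, 1.53 and 19.6 CPM under the wild type label and at 1.84, 0.761 and 0.117 CPM under the knockout label. It was 13.4-fold above its females in the male labelled wild type, and its interaction was -4.83 (SE 0.69, limma adjusted p = 0.011). The value of the male labelled knockout is at the 3-read floor. Ccl2 was at 0.712, 0.297 and 6.15 CPM under the wild type label, and under the knockout label at 0.582, 0.326 and 0 CPM. Ccl2 was thus 12.2-fold above the females in the male of the wild type label, and at least 52.6-fold above the other male, taken at its 3-read floor. Its interaction of -3.68 (SE 0.74, limma adjusted p = 0.0416) depends on the pseudocount, and it missed the threshold without labelled wild type 2, labelled knockout 1 or labelled knockout 2 (limma adjusted p = 0.0676, 0.0888 and 0.0544, in a range of 0.0279 to 0.167 over all alternatives). Ccl7 was likewise highest in the male labelled wild type and lowest in the other male, at 0.335, 0.989 and 5.72 CPM under the wild type label and 0.538, 0.471 and 0.156 CPM under the knockout label, and missed the threshold (interaction -3.09, limma adjusted p = 0.0748). Ccl12, at 0.544, 0.593 and 1.62 CPM under the wild type label and 0.403, 0.290 and 0 CPM under the knockout label, also missed it (interaction -1.75, limma adjusted p = 0.24).

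Among the other inflammatory CC ligands, Ccl5 resembled the CXCR3 ligands, while Ccl6 and Ccl9 did not. Ccl5, or RANTES, a product of T cells and NK cells among others, was at 31.6, 12.4 and 166 CPM under the wild type label and at 21.7, 20.2 and 15.9 CPM under the knockout label. In the male labelled wild type it was 7.53-fold above its females, the other 5 libraries overlapped, and the interaction was -3.42 (SE 0.61, limma adjusted p = 0.0269). Ccl5 also missed the threshold under robust moderation (limma adjusted p = 0.091, in a range of 0.000355 to 0.229 over all alternatives). Markers of T cells, 9 of 9 in the table, gave between 47.03 and 60.98 CPM in the females and 177 CPM in that male. The part of those cells in the level of Ccl5 was not tested. Ccl6, made by macrophages and other myeloid cells, was at 95.8, 86.2 and 216 CPM under the wild type label and at 68.9, 84.3 and 128 CPM under the knockout label. Both males lay above all 4 females, and the sex difference was 0.99 (SE 0.15, limma adjusted p = 0.0332). Ccl9, also known from myeloid cells, was at 18.4, 15.03 and 46.9 CPM under the wild type label and at 18.1, 14.7 and 36.2 CPM under the knockout label. Here too both males were highest, with a sex difference of 1.30 (SE 0.18, limma adjusted p = 0.0246). Inflammatory monocyte markers summed to 560 and 687 CPM in the males and to 179 to 410 CPM in the females, and alveolar macrophage markers to 628 and 532 CPM and to 367 to 622 CPM. Chil3 is in both lists. Without it the monocyte markers summed to 322 and 456 CPM in the males and to 104 to 155 CPM in the females, and the macrophage markers to 389.6 and 301 CPM and to 266 to 343 CPM. Their part in the levels of Ccl6 and Ccl9 was not tested. Ccl3 and Ccl4, macrophage inflammatory proteins, were low: Ccl3 was at 2.97, 0.841 and 3.63 CPM under the wild type label and 1.52, 1.85 and 0 CPM under the knockout label. For Ccl4 the range over the 6 libraries was 0.689 to 3.37 CPM, and neither passed in any comparison fitted to all 6 libraries. Ccl3 passed for the interaction with labelled wild type 1 left out.

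The neutrophil-attracting ligands, grouped here under the receptor CXCR2, split within the group. Cxcl15 was at 1266, 1118 and 895 CPM under the wild type label and at 1199, 1298 and 1049 CPM under the knockout label, so that both males lay below the females. The sex difference of -0.33 did not pass (limma adjusted p = 0.325). Alveolar type 2 markers were at 16669 and 15013 CPM in the males against at least 19314 CPM in the females. Airway secretory markers were at 18445 and 13852 CPM against at least 24831 CPM. Ciliated, fibroblast and mesothelium markers were likewise below all females in both males, and the other cell lists were not. The part of any of these cells in the level of Cxcl15 was not tested. Cxcl1, or KC, was at 0.461, 0.445 and 6.92 CPM under the wild type label and at 0.627, 0.218 and 0.312 CPM under the knockout label. In the male labelled wild type it was 15.3-fold above its females, but the interaction of -3.11 missed the threshold (limma adjusted p = 0.0652). Cxcl5, or LIX, was at 0.502, 0.247 and 4.01 CPM under the wild type label and at 0.896, 1.52 and 0.546 CPM under the knockout label (interaction -3.07, limma adjusted p = 0.0648). Cxcl2, or MIP-2, a ligand that neutrophils and macrophages themselves make, had another order: 0.377, 0.495 and 2.35 CPM under the wild type label and 1.16, 0.761 and 5.15 CPM under the knockout label. Both males lay above all females and the male labelled knockout was highest. This is the library with 28.0-fold more neutrophil marker CPM than its females, and the part of neutrophils in Cxcl2 was not tested. Cxcl3 stayed between 0.0495 and 0.299 CPM. Cxcl1, Cxcl2 and Cxcl3, whose matched letters upstream are the same, did not have the same library on top: Cxcl1 and Cxcl3 were highest in the male labelled wild type and Cxcl2 in the male labelled knockout.

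Most ligands that lead dendritic cells and T cells to each other were lowest in the male labelled knockout, as 37.5% of genes tested were. Ccl21b was not, at 18.3 CPM there and at 17.05 and 21.3 CPM in the females of that label. Ccl17 and Ccl22, the CCR4 ligands made by dendritic cells and macrophages, had unadjusted genotype p-values under 0.05 in limma and adjusted ones of 0.775. Ccl17 was at 5.61, 3.46 and 6.32 CPM under the wild type label and at 3.05, 3.34 and 0.273 CPM under the knockout label. The labels did not overlap, though the lowest labelled wild type and the highest labelled knockout values lay close together. Its females were 11.7-fold above the male under the knockout label, and the interaction was -2.73 (limma adjusted p = 0.0529). Ccl22 was at 8.71, 15.3 and 21.5 CPM under the wild type label and at 11.6, 6.31 and 1.91 CPM under the knockout label (interaction -2.78, limma adjusted p = 0.0574). Dendritic cell markers, a list that holds Ccl22 itself, summed to 147 CPM in the male labelled knockout, 268 CPM in the male labelled wild type and 165 to 188 CPM in the females.

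The CCR7 ligands are Ccl19, made by lymphoid stroma and dendritic cells, and the Ccl21 copies of lymphatic endothelium. Ccl19 (chromosome 4, 42754525 to 42756577) lies on the minus strand. It stood at 1.38, 1.24 and 7.25 CPM under the wild type label and at 2.01, 1.81 and 0 CPM under the knockout label. In the male labelled wild type it was 5.54-fold above its females, and the females labelled knockout were at least 16.4-fold above their male, taken at its 3-read floor. Its interaction was -4.37 (SE 0.60, limma adjusted p = 0.00926), and it ran from -6.72 to -3.38 over the settings because the fitted value of a gene at 0 depends on the pseudocount. Cxcl13, the CXCR5 ligand of B cell follicles, was at 2.76, 5.39 and 10.2 CPM under the wild type label and at 8.15, 3.84 and 2.38 CPM under the knockout label, and passed in no comparison. B cell markers summed to 72.9 CPM in the male labelled knockout and to 158 to 281 CPM in the other 5 libraries.

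The Ccl21 genes are near copies on chromosome 4, and their sequences set how far the table can separate them. Over the 402 coding bases of the GENCODE M21 transcripts, Ccl21b (42255767 to 42256432, plus strand), Ccl21d (41903610 to 41904743, plus strand, named Gm21541 there) and a further copy, Gm10591, were identical. Ccl21a (42772860 to 42773993, minus strand) differed from them at 2 positions counted from 1 at the start codon, A84T and T194C, with the base of Ccl21b written first. Bases 59 to 218, with those 2 positions in capitals, show the only coding differences between the copies:
Ccl21a: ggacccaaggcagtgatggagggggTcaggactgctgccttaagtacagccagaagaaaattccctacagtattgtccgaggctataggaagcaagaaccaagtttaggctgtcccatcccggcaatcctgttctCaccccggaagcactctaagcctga
Ccl21b: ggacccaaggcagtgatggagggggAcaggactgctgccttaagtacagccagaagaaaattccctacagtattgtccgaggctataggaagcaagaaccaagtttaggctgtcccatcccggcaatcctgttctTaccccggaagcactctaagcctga
Short reads from most of this stretch cannot be placed on 1 copy, so the level of each gene is uncertain. The ratio of Gm10591 to Ccl21d was 1.06 in all 6 libraries, which is what a fixed division of shared reads gives. The annotated exons of Ccl21b hold the 402 coding bases alone, so its 62.2 CPM per 1000 bases is not on the footing of the 870 exon bases of Ccl21a.

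Ccl21b was the member with the smallest genotype p. It was at 30.01, 33.4 and 30.03 CPM under the wild type label and at 17.05, 21.3 and 18.3 CPM under the knockout label, with no overlap. The means were 31.1 ± 1.94 and 18.9 ± 2.19 CPM (SD, n = 3 each), a log2 difference of -0.71 (SE 0.15), which the females gave as -0.72. It did not pass across all genes (limma unadjusted p = 0.00124, adjusted p = 0.671). Ccl21a was at 67.6, 78.7 and 55.1 CPM under the wild type label and at 50.2, 69.9 and 39.6 CPM under the knockout label, where the labels overlapped. Ccl21d was at 7.52, 11.7 and 6.05 CPM under the wild type label and at 4.29, 6.60 and 0.126 CPM under the knockout label. The sum over the 4 copies was 113, 136 and 97.6 CPM under the wild type label. Under the knockout label it was 76.1, 105 and 58.2 CPM, and the labels overlapped. A division of shared reads among the 4 copies leaves this sum unchanged. Dropping such reads, or counting them at each copy, would change it, and which was done is not given. Lymphatic endothelium markers, a list that holds Ccl21a, summed to 482, 562 and 404 CPM and to 485, 518 and 587 CPM in the same order, highest in the library where Ccl21a was lowest.

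The constitutive CXC ligands include 1 of the 8 members called for the interaction, Cxcl14. Cxcl12 was at 314, 286 and 215 CPM under the wild type label and at 306, 326 and 301 CPM under the knockout label, and passed in no comparison. Cxcl14, an epithelial and stromal ligand, was at 156, 129.5 and 105 CPM under the wild type label and at 128, 132 and 44.9 CPM under the knockout label. Both males lay below the females and the male labelled knockout was lowest, 2.90-fold below its females. Its interaction of -1.09 (SE 0.21, limma adjusted p = 0.0354) missed the threshold without labelled knockout 1, without labelled knockout 2 and under both other scalings (limma adjusted p = 0.0901, 0.0965, 0.0588 and 0.0592, in a range of 0.0121 to 0.212 over all alternatives). Airway secretory and ciliated cell markers in that male were at 0.505 and 0.465 of the level of its females, and their part in Cxcl14 was not tested. Cxcl17, a ligand of mucosal epithelium, ranged from 14.8 to 29.6 CPM and passed in no comparison.

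The 2 ligands that are made as membrane-bound proteins with a chemokine head differed from each other. Cxcl16, the CXCR6 ligand of macrophages and dendritic cells, was at 72.4, 79.6 and 164 CPM under the wild type label and at 76.8, 71.9 and 56.8 CPM under the knockout label. The 4 females lay within a narrow band, the males on either side of it, and the interaction was -1.49 (SE 0.20, limma adjusted p = 0.0078). Exons of Zmynd15 overlap Cxcl16 on the opposite strand. Cx3cl1, or fractalkine, was at 71.9, 62.3 and 62.5 CPM under the wild type label and at 71.3, 58.3 and 35.6 CPM under the knockout label. It was low only in the male labelled knockout, and passed in no comparison fitted to all 6 libraries (interaction -0.75, limma adjusted p = 0.165).

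The remaining ligands were low in all libraries. The eotaxins Ccl11 and Ccl24, which draw eosinophils through CCR3, ranged from 1.40 to 3.30 CPM and from 0 to 0.811 CPM, lowest in the male labelled knockout in each case. Of the ligands of mucosal and skin homing receptors, Ccl25 ranged from 2.502 to 3.76 CPM, Ccl27a from 2.37 to 6.27 CPM, Ccl20 from 0.109 to 2.51 CPM and Ccl28 from 0.0837 to 1.58 CPM. None of these 6 passed in any comparison. Exons of Elavl1 overlap Ccl25 and exons of Il11ra1 overlap Ccl27a on the opposite strand. Xcl1, which attracts cross-presenting dendritic cells through XCR1, was at or under the 3-read floor in 3 libraries and reached 0.555 CPM in the male labelled wild type.

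**Figure D4:**
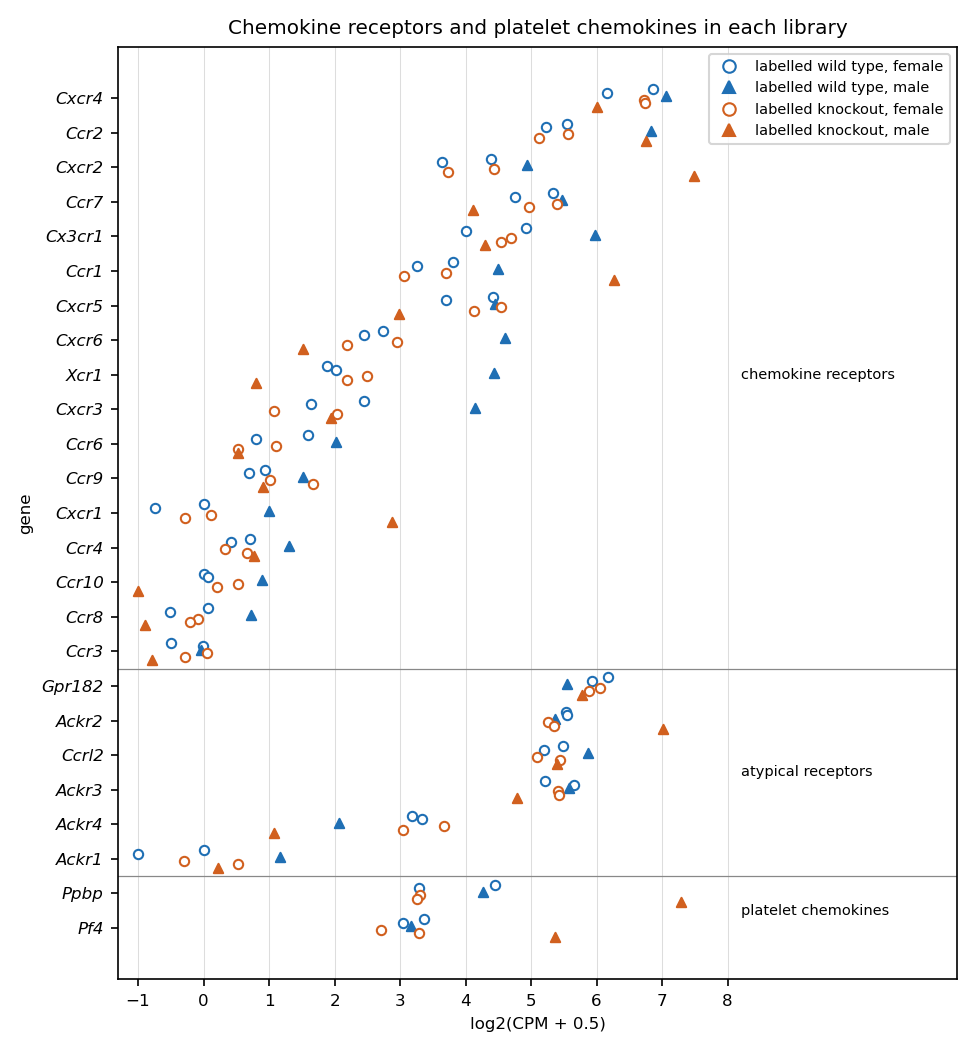
Level of 17 chemokine receptors, 6 atypical receptors and 2 platelet chemokines in the 6 libraries, as log2(CPM + 0.5), with circles for females, triangles for males, blue for the wild type label and orange for the knockout label. Ccr2 is high in both males, Cxcr6 and Xcr1 are highest in the male labelled wild type, and Cxcr2, Ackr2, Ppbp and Pf4 are highest in the male labelled knockout.

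The receptors of these ligands followed more than 1 pattern. Of 17 signalling receptors, 15 were tested. limma called 0 of them for genotype (0.0115% of all genes), 1 for sex (0.834%) and 3 for the interaction (2.54%). At an unadjusted genotype p under 0.05 there was 1 of 15, near the 5.13% of all genes. Ccr2, the monocyte receptor of Ccl2, was at 46.1, 36.8 and 113 CPM under the wild type label and at 46.6, 34.3 and 107 CPM under the knockout label, higher in both males by 1.43 (SE 0.16, limma adjusted p = 0.0146). Its ligand Ccl2 was without a read in the male labelled knockout. Cxcr2, a receptor of neutrophil-attracting ligands, was at 20.4, 12.02 and 30.01 CPM under the wild type label. Under the knockout label it was at 21.1, 12.7 and 179.6 CPM (interaction 2.498, limma adjusted p = 0.0417). Xcr1 was at 3.18, 3.56 and 21.002 CPM under the wild type label and at 5.15, 4.06 and 1.25 CPM under the knockout label (interaction -4.01, limma adjusted p = 0.00596). Cxcr6, the receptor of Cxcl16, was highest in the male labelled wild type at 23.6 CPM (interaction -3.04, limma adjusted p = 0.0279). The call of Cxcr2 ended with a pseudocount of 0.1 CPM and under quantile scaling (limma adjusted p = 0.0541 and 0.0595, in a range of 0.0132 to 0.246 over all alternatives). That of Cxcr6 ended without labelled knockout 1 (limma adjusted p = 0.0526) and that of Ccr2 without labelled knockout 2 (0.0566). Cxcr3, the receptor of Cxcl9 and Cxcl10, was at 4.94, 2.62 and 17.2 CPM under the wild type label and at 1.61, 3.59 and 3.35 CPM under the knockout label, and did not pass (interaction -1.71, limma adjusted p = 0.256).

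Among 6 receptors listed as atypical, most of which bind chemokines without G protein signalling, Ackr2 passed for the interaction, as 2.54% of all genes did. This scavenger of inflammatory CC ligands was at 45.6, 46.1 and 40.8 CPM under the wild type label and at 37.8, 40.1 and 128 CPM under the knockout label (interaction 1.88, SE 0.21, limma adjusted p = 0.00326). Only the male labelled knockout was high, and the other 5 libraries lay close together. The platelet chemokines outside the rule were also highest there: Ppbp was at 156 CPM against 9.03 to 21.4 CPM in the other 5 libraries (interaction 3.62, limma adjusted p = 0.0162), and Pf4 at 40.9 CPM against 6.05 to 9.76 CPM (interaction 2.40, limma adjusted p = 0.0328, and 0.0610 without labelled knockout 1). Platelet markers, a list that holds both, summed to 359.5 CPM in that male and to 31.8 to 59.8 CPM in the other libraries. Erythroid markers were also highest there, at 5863 CPM, with 2762 CPM in the other male and 851 to 1608 CPM in the females. The part of blood cells in these levels was not tested. Of 17 genes of signalling below the receptors, limma called 2 for sex, where 0.834% of all genes were called. These were Arrb2 and Rac2, higher in males by 1.05 and 1.35 (limma adjusted p = 0.0276 and 0.0446). Neither passed without labelled wild type 2, labelled knockout 1 or labelled knockout 2 (limma adjusted p between 0.0504 and 0.187), and Rac2 also not without labelled knockout 3 (0.0795). None of the 17 passed for the interaction, where 5 had an unadjusted p under 0.05 and 17.9% of all genes did.

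The cytokines that induce these ligands, the interferon response and NF-kB targets were read from 3 lists, and each had members called for the interaction, as 2.54% of all genes were. Ifng, the cytokine that induces Cxcl9, was at 0.209, 0.297 and 7.94 CPM under the wild type label and at 0.0896, 0 and 0 CPM under the knockout label (interaction -3.61, limma adjusted p = 0.0398). Only through the male labelled wild type did Ifng reach the filter of 0.5 CPM. In labelled knockout 1 it was under the 3-read floor. It was the 1 of 10 tested inducing cytokines that passed, and it did so in no fit that left out a female (limma adjusted p between 0.0558 and 0.0841). Tnf, at 1.42, 1.34 and 6.40 CPM under the wild type label and 0.134, 0.508 and 0.663 CPM under the knockout label, did not overlap between the labels and did not pass (genotype -1.68, limma adjusted p = 0.775). Of 15 interferon-response genes, 10 had a negative interaction past the threshold, among them Gbp2 (-3.73, limma adjusted p = 0.00027) and Irf1 (-2.12, limma adjusted p = 0.00509). Rsad2 was instead higher in both males (1.85, limma adjusted p = 0.0076). Of 10 NF-kB inhibitors and targets, Tnfaip3 and Nfkb2 passed with negative interactions of -1.69 and -1.22 (limma adjusted p = 0.00965 and 0.0467). The call of Nfkb2 ended without labelled wild type 2, labelled knockout 1 or labelled knockout 2 (limma adjusted p = 0.0525, 0.0805 and 0.1238).

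**Figure D5:**
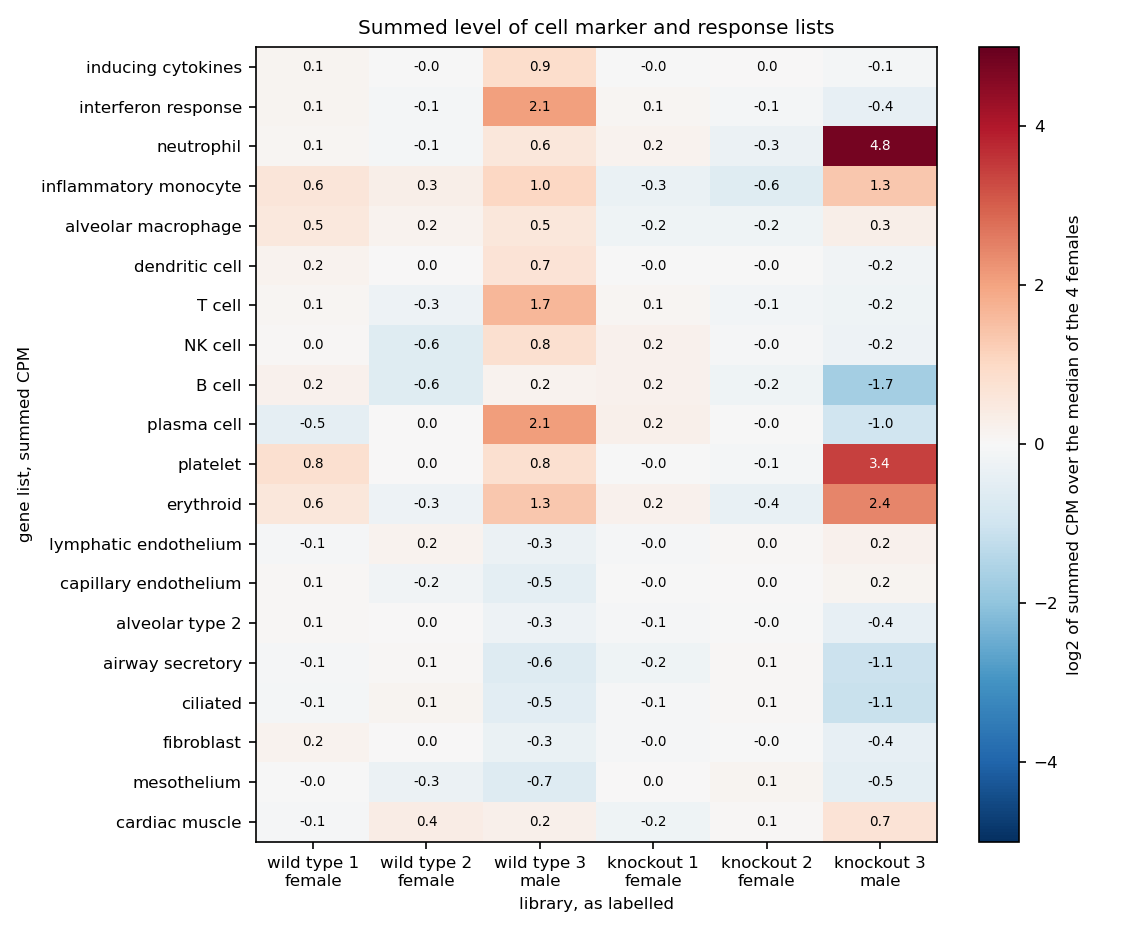
Summed CPM of 2 response lists and 18 cell marker lists in each library, as the log2 ratio to the median of the 4 females, with red for higher and blue for lower. The male labelled wild type is 2.1 higher for the interferon-response and plasma cell lists, and the male labelled knockout is 4.8 higher for neutrophil and 3.4 higher for platelet markers.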

How the data were processed

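RNA-seq was run on 6 lung libraries of mice on a high fat diet, and the authors deposited 1 table of CPM values (counts per 1000000 reads assigned to genes) with 0.0001 added to each value, which was subtracted here. Partek, TopHat2 and genome build mm10 are named in the submitters' processing notes. The annotation, strand use and treatment of reads that fit several genes were not given in sources used here. Depth was read from the smallest step of the CPM values in each library, and 82.1% to 83.2% of values worth up to 100 reads came out whole within 0.05.

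limma 3.58.1 (R 4.3.3, with a variance trend) was fitted to log2(CPM + 0.5) of 17382 genes with a mean of at least 0.5 CPM, on genotype and sex as labelled, and in a separate model on their interaction. A fold on this scale understates the change of low genes. Benjamini-Hochberg adjustment ran over all genes, with a threshold of 0.05. The script was tested on simulated data. Alternatives were other pseudocounts, filters, scalings and variance settings, models without the second term, the females alone, each library left out and, added after the data were seen, libraries without a read set to the 3-read floor and 2 marker lists without Chil3. Every member of the rule was named, with other genes taken from 36 lists of receptors, pathways and cell markers. Some genes of these pathways are not reported here. The members and lists were chosen with earlier results of these data known. Exon lengths and positions came from GENCODE M21 (mm10), which held 99.75% of the gene IDs, and upstream sequences from RefSeq (GRCm38.p6). Protein features were not used here. Tables were handled in Python 3.11.15 with pandas 2.3.3 and numpy 2.4.6, and plots drawn with matplotlib 3.10.9.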

Additional observations from a re-analysis of the deposited data

Results flagged for a closer look

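Among the 4 females, 6 of 36 ligands had 1 library whose gap to the nearest other exceeded Dixon's limit for 4 samples. About 1 in 20 sets of normally distributed values pass that limit. CPM values of few reads need not be so distributed, so the 2 shares cannot be compared directly. Cxcl14 at 156 CPM and Ccl17 at 5.61 CPM were high in labelled wild type 1. Xcl1 at 0.445 CPM and Cxcl11 at 0.346 CPM were high in labelled wild type 2. The other females were under the 3-read floor for Xcl1 and had no read of Cxcl11. In labelled knockout 1, Ccl20 was high at 2.51 CPM and Ccl27a was low at 2.37 CPM.

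The genotype difference differed between the sexes in limma's interaction term for 8 ligands. On the log2 scale the interaction was -7.72 for Cxcl9, -5.92 for Cxcl10, -4.83 for Ccl8, -4.37 for Ccl19, -3.68 for Ccl2, -3.42 for Ccl5, -1.49 for Cxcl16 and -1.09 for Cxcl14, each resting on 1 male per label. Ccl2 passed the filter only through the male labelled wild type.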

How the results depend on the processing

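The genotype comparison called 0 ligands under all 16 alternatives. For sex, the 2 calls became 0 without the variance trend (6 with an unadjusted p under 0.05) and 1 without the genotype term (Ccl9), and ranged from 0 to 12 with 1 library left out. For the interaction, the 8 calls became 0 with no filter and 0 without the variance trend, and ranged from 6 to 10 with 1 female left out. Leaving out a male was not run there, since no interaction can then be estimated. The sex difference of Cxcl9 was 3.79 with all libraries, -0.073 without the male labelled wild type and 7.65 without the male labelled knockout. The cause of these changes was not tested.

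Over all genes, the 2 genotype calls became 6 with no filter, quantile scaling, median centring or robust moderation (3 higher and 3 lower each), and 4 in the females alone, and ranged from 1 to 4 with a library left out. The 145 sex calls became 11 without the variance trend and ranged from 21 to 877. The 441 interaction calls ranged from 255 to 696 with a female left out. Median centring moved the median interaction of all genes by 0.23 and split the calls 348 positive to 313 negative, while the median of the ligands stayed negative at -1.33. Its shift for genotype was 0.10, with a ligand median of -0.41. No paired analysis was possible because the library numbers used here only name the libraries, and the labels tie no library of one group to one of the other. Ligands below 1 CPM rest on few reads, and differences near 0.148 CPM were not detectable.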
